A study of Mus musculus with 2 samples.

Results

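Cardiac sarcomere and natriuretic peptide genes were examined in teratomas grown from mouse embryonic stem cells (ESCs) with and without a Sox2 mutation. The 10 genes, of 45777 in the gene table, were taken by name: Actc1, Myh6, Myh7, Tnnt2, Tnni1, Tnni3, Myl2 and Myl7 for the contractile unit, and Nppa and Nppb for the natriuretic peptides. All 10 were found in the table. A teratoma is a tumour in which injected pluripotent cells differentiate into tissues of all germ layers. The control teratoma came from E14, a mouse ESC line with unmutated Sox2, and the other from E14-Sox2TA/WT, in which CRISPR-Cas9 replaced threonine with alanine (T258A) on 1 of the Sox2 alleles of E14 cells, removing a residue that carries O-GlcNAc. The mutant line was picked from single-cell clones, so that effects of the clone and of the mutation cannot be told apart. Cells were placed under the skin of BALB/c-nu mice, which lack a thymus and still have their own muscle, vessels and connective tissue, with 3 mice in each group, and tumours were taken 14 days later. Each group has 1 RNA-seq library, and the labels do not say whether a library holds 1 tumour or several. The age of the mice is not given in the sources used here.

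The sarcomere is the repeating contractile unit of striated muscle, in which myosin heavy chains, each carrying light chains, pull on actin filaments, while troponin and tropomyosin on the actin filament switch contraction on with calcium. The heart and skeletal muscle use related copies of these proteins, and several heart copies are also active in embryonic or slow skeletal muscle. Nppa and Nppb encode atrial and B-type natriuretic peptides, hormones that heart muscle releases and that promote salt excretion and lower blood pressure. Nppa marks working chamber myocardium in the embryo. In mice, Myh7 is the main ventricular heavy chain before birth and Myh6 the adult one, while Myl7 marks atrial and early heart muscle and Myl2 marks the ventricle.

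Promoter sequences of 4 of these genes show the regulatory letters near genes that stood at opposite ends of the comparison and near the neighbouring pair of natriuretic peptide genes. Each is the 250 bases before a start listed for the gene in RefSeq promoter windows on GRCm38.p6, read 5′ to 3′ on the gene's strand, with chr2:114052876-114053125 (minus) for Actc1, chr11:5898783-5899032 (minus) for Myl7, chr4:148000472-148000721 (plus) for Nppa and chr4:147985650-147985899 (plus) for Nppb. The Nppb window reaches past the first base of the gene as listed in the gene annotation, so that its end, with all the marked matches, lies inside the annotated gene. Capitals mark matches on either strand to AGATAA or TGATAA (bound by GATA factors), to CATTCC (the M-CAT element, bound by TEAD factors) or to the CArG box (bound by serum response factor).
Actc1: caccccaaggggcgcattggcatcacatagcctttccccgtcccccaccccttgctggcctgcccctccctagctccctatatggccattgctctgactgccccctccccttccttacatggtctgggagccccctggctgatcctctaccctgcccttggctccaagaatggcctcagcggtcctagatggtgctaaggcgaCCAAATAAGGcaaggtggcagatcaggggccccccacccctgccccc
Myl7: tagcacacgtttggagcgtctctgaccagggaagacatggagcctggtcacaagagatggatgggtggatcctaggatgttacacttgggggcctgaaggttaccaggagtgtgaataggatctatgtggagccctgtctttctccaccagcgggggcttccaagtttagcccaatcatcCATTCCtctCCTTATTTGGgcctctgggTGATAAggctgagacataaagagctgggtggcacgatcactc
Nppa: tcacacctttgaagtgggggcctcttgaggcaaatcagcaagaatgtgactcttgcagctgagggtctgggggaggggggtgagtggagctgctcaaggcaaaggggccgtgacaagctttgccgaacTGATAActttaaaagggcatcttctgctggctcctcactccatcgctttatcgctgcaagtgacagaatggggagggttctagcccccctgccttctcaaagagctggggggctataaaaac
Nppb: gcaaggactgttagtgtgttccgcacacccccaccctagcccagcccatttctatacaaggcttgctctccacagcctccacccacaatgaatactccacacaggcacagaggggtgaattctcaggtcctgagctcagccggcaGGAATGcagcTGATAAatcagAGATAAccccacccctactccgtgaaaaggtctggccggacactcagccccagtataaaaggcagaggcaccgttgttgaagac

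The Actc1 window held a CArG box and neither of the other marked motifs. The Myl7 window held all 3 kinds, lying between -70 and -42 from the listed start. In the Nppb window an M-CAT match lay at -105 with 2 GATA matches downstream of it, and the Nppa window held 1 GATA match at -122. Among all 10 genes, a GATA match was present near 5 (Myl2, Myl7, Nppa, Nppb and Tnnt2), against 18.8% of 27025 genes with such windows. An M-CAT match was present near 5 (Myh6, Myh7, Myl7, Nppb and Tnnt2), against 14.4% of genes, and a CArG box near 2 (Actc1 and Myl7), against 1.62%. Some genes have several windows and were counted once if any of them held the letters. The marked motifs did not overlap in the windows printed. A match describes letters and not a bound site.

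The libraries had 50529171 (E14) and 49030281 (E14-Sox2TA/WT) reads on genes, and the 10 genes together took 5062 and 2987 of them. Levels are given in TPM, a transcript's share of its library, which corrects for transcript length, and ratios are E14-Sox2TA/WT over E14. With 1 library per group there is no test, and the error given is the 95% exact (Clopper-Pearson) interval that the read counts allow, carried to the TPM scale. These intervals cover counting error only and compare these 2 libraries, not the conditions. The study's rule calls a gene when its TPM differs by more than 2-fold and is at least 10 in 1 or both libraries. In bulk tumour RNA, fewer cells of a type and less RNA per cell cannot be told apart. Sox2 itself was at 246 TPM in the E14 library and 130 TPM in the E14-Sox2TA/WT library. The gene counts include both Sox2 alleles and do not check the mutation.

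The heart genes did not move as a block. Actc1, by far the most abundant, was 3.002-fold lower in the E14-Sox2TA/WT teratoma, while Myh6 was 2.11-fold and Myl7 7.97-fold higher there. Myl2 and Nppb had no reads in the E14 library and 24 and 29 reads in the other. The cardiac troponins Tnnt2 and Tnni3 differed little. In E14 4 of the 10 genes were under 1 TPM, and in E14-Sox2TA/WT 1 was.

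**Figure D1:**
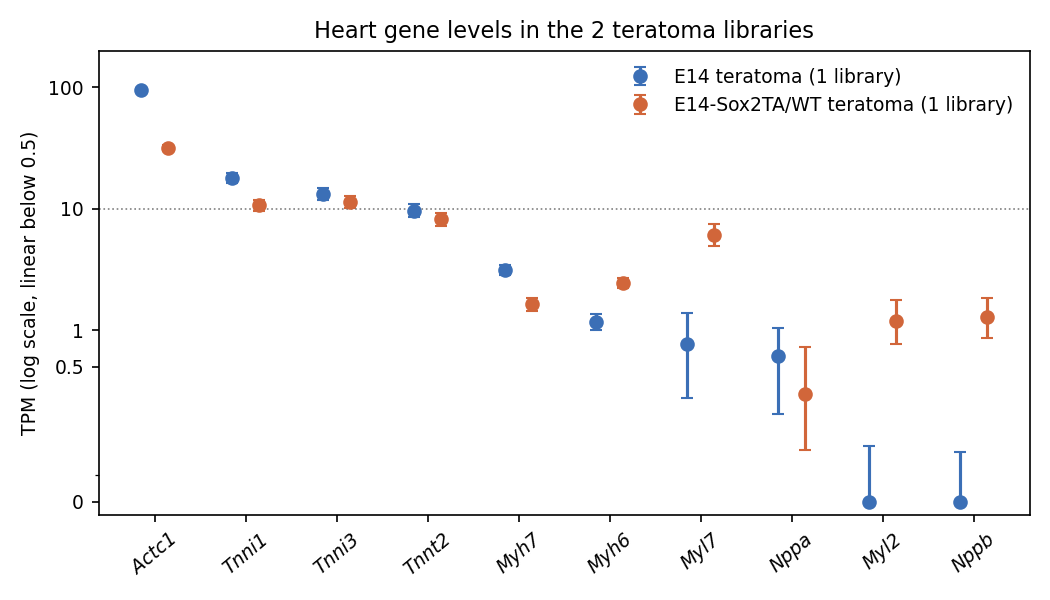
TPM of the 10 genes in the E14 (blue) and E14-Sox2TA/WT (orange) teratoma libraries on a log axis that is linear below 0.5; points are single libraries and bars are 95% counting intervals. Actc1 stands above all others in both libraries, at 94.7 and 31.6 TPM, and Myl2 and Nppb sit at 0 in E14; the dotted line marks 10 TPM.

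By the study's rule, 3 of the 10 genes were abundant enough to be assessed (Actc1, Tnni1 and Tnni3), of which 0 were called higher and 1, Actc1, was called lower. Over all 11578 genes assessed, 10.8% were called higher and 18.7% lower. With the abundance limit set at 1 TPM, 9 of the 10 were assessed, Nppa being the exception. Of these 9, 4 were higher by more than 2-fold (Myh6, Myl7, Myl2 and Nppb), 1 was lower (Actc1) and 4 were neither (Myh7, Tnnt2, Tnni1 and Tnni3). Over all 18558 genes at this limit, 19.3% were higher and 18.9% lower. Myl7, Myl2 and Nppb passed the limit only through the library in which they were higher. The count and the median of the 9 are therefore partly set by the limit, and neither is read as a difference from all genes. With 1 added to each TPM, the median log2 ratio of the 9 was -0.22, beside -0.06 over all genes at this limit. That all-gene median depended on the scaling, standing at 0.12 with FPKM or library totals and 0.01 with TMM or median-of-ratios factors. Relative to it the median of the 9 lay between -0.16 and -0.13.

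**Figure D2:**
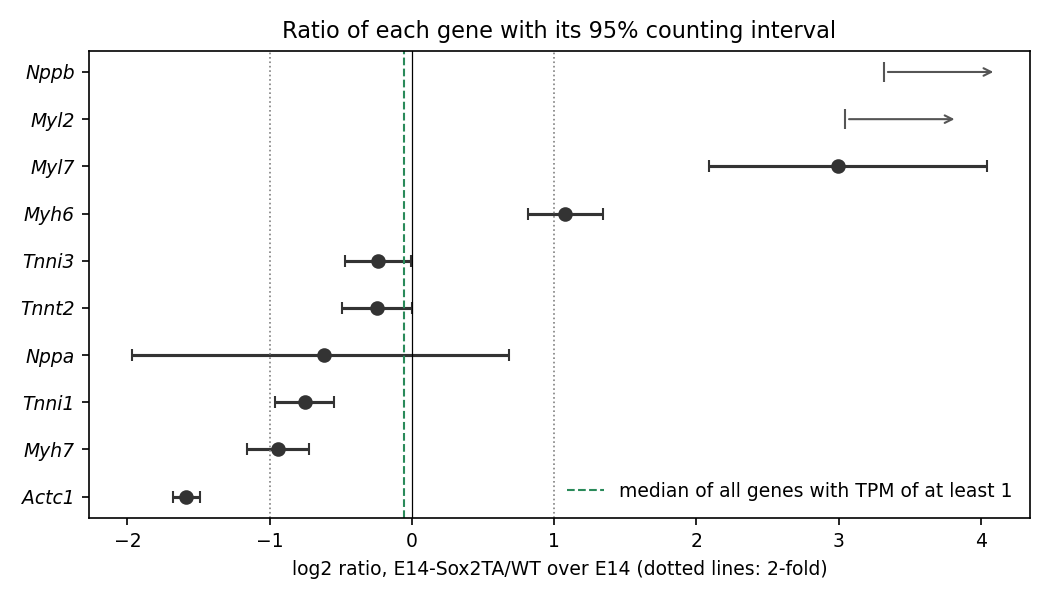
Log2 ratio of TPM (E14-Sox2TA/WT over E14, x axis) for each of the 10 genes, with 95% counting intervals; arrows start at the lower bounds for Myl2 and Nppb (reads as a share of the library, 3 reads in place of 0), and dotted lines mark 2-fold. Actc1 lies beyond 2-fold below, Myl7 beyond 2-fold above, and the Nppa interval spans both sides of 0.

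Actc1 encodes cardiac α-actin, the thin filament actin of the heart, which embryonic skeletal muscle also makes. The gene lies at chr2:114047282-114052875 on the minus strand. It was at 94.7 TPM (3331 reads) in E14 and 31.6 TPM (1239 reads) in E14-Sox2TA/WT. The level was 3.002-fold lower in the mutant library, with an interval of 2.81 to 3.21-fold. With FPKM the difference was 2.62-fold. Actc1 made up 67.0% of the summed TPM of the 10 genes in E14 and 42.2% in E14-Sox2TA/WT. The sum was 141 TPM in E14 and 74.8 TPM in E14-Sox2TA/WT, but without Actc1 it was 46.7 and 43.3 TPM, so that most of the gap in the sum was Actc1. Its closest relative Acta1, skeletal α-actin, was at 33.6 and 18.2 TPM, 1.85-fold lower (interval 1.68 to 2.03). Actc1 shared no stretch of 50 nt with the transcripts of any other gene in the GENCODE M21 annotation, Acta1 included.

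Myh6 and Myh7, which lie next to each other at chr14:54941921-54968017 and chr14:54970684-54994626 on the minus strand, encode the α and β cardiac myosin heavy chains. Myh6 was at 1.16 TPM (172 reads) in E14 and 2.45 TPM (406 reads) in E14-Sox2TA/WT, 2.11-fold higher with an interval of 1.76 to 2.54. Myh7, which slow skeletal muscle also uses, was at 3.14 TPM (458 reads) and 1.64 TPM (279 reads), 1.92-fold lower with an interval of 1.65 to 2.23. The pair therefore went in opposite directions, and their order was reversed. Of their summed TPM, Myh6 took 27.0% in E14 (interval 23.6 to 30.6%) and 60.0% in E14-Sox2TA/WT (56.2 to 63.6%), while the sum itself was nearly the same, 4.31 and 4.09 TPM. This share is taken within a library and does not depend on how the libraries were scaled. The transcripts of Myh6 share 20.2% of their 50 nt stretches with Myh7, so part of the reads may have been divided between them by the counting.

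Several other transcription units touch this locus. The 3′ end of Myh6 overlaps Cmtm5, on the other strand, by 1125 bases, but no exon bases of the GENCODE models overlapped, and Cmtm5 went the other way from Myh6, with 308 reads in E14 and 57 in E14-Sox2TA/WT. Gm52092, a long non-coding RNA, overlaps Myh6 by 3928 bases and had 15 reads in E14 and 4 in E14-Sox2TA/WT. Its exon overlap with Myh6 was not measured. Gm31251, an antisense long non-coding RNA, overlaps Myh7 and shares 523 exon bases with it in GENCODE. It had 20 reads in E14 and 0 in E14-Sox2TA/WT, few beside the 458 and 279 reads of Myh7. Mhrt, the antisense RNA of this locus, shares 484 exon bases with Myh7 in GENCODE. Mhrt and the microRNAs Mir208a and Mir208b, which lie in introns of these genes, were listed at 0 reads in both libraries. Whether the counting used strand is not given in the sources used here.

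The regulatory light chains bind the neck of the myosin head. Myl7, the atrial form, at chr11:5896637-5898782 on the minus strand, was at 0.771 TPM (11 reads) in E14 and 6.14 TPM (98 reads) in E14-Sox2TA/WT. The ratio of 7.97 had an interval of 4.26 to 16.5, the highest ratio among the genes with reads in both libraries. Myl2, the ventricular form, at chr5:122092724-122113473 on the plus strand, had 0 reads in E14 and 24 reads (1.20 TPM) in E14-Sox2TA/WT, at least 8.24-fold higher as a share of library reads when a count of 0 is taken to allow 3 reads. Myl7 took 83.7% of the summed TPM of Myl7 and Myl2 in E14-Sox2TA/WT (interval 76.5 to 89.3%). Both were above their E14 level, with Myl7 in excess of Myl2. The Myl2 value is uncertain, because Ccdc63 on the opposite strand overlaps the gene by 5422 bases, sharing 60 exon bases with it in GENCODE, and likewise had 0 reads in E14 and 46 in E14-Sox2TA/WT. Its part in the Myl2 count was not tested.

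Troponin T anchors the troponin complex to tropomyosin, and troponin I holds contraction off until calcium is bound. Tnnt2, cardiac troponin T, at chr1:135836315-135852268 on the plus strand, was at 9.67 TPM (287 reads) in E14 and 8.17 TPM (273 reads) in E14-Sox2TA/WT, a ratio of 0.845 with an interval of 0.713 to 1.0002. Tnni3, the cardiac troponin I, at chr7:4518305-4522718 on the minus strand, was at 13.3 TPM (319 reads) and 11.3 TPM (308 reads), a ratio of 0.848 with an interval of 0.723 to 0.995. With FPKM the ratios were 0.969 and 0.973. Both genes thus differed by less than 2-fold even at the far end of their intervals. Tnni1, the slow skeletal troponin I that the embryonic heart also makes, at chr1:135783033-135810989 on the plus strand, was at 18.0 TPM (471 reads) and 10.7 TPM (321 reads), 1.68-fold lower with an interval of 1.46 to 1.95. Tnni3 took 42.6% of the TPM of the troponin I pair in E14 (39.1 to 46.2%) and 51.5% in E14-Sox2TA/WT (47.5 to 55.4%).

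The Tnni3 value came with a close match at its neighbour. Dnaaf3, which encodes a factor that assembles dynein arms of cilia, lies upstream on the same strand. Its 3′ end is 214 bases from the start of Tnni3. It was at 13.4 TPM (715 reads) in E14 and 11.3 TPM (671 reads) in E14-Sox2TA/WT, so that the ratio of Tnni3 to Dnaaf3 was 0.998 in both libraries. In GENCODE 86 exon bases of Tnni3, 4.17% of its exon sequence, also belong to Dnaaf3. Whether reads running through from Dnaaf3 contribute to the Tnni3 count was not tested.

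The natriuretic peptide genes lie side by side at chr4:148000722-148002074 (Nppa) and chr4:147985786-147987205 (Nppb), both on the plus strand. Nppa was at 0.613 TPM (13 reads) in E14 and 0.399 TPM (10 reads) in E14-Sox2TA/WT, and the ratio of 0.651 had an interval of 0.256 to 1.61, so that no difference was detectable at this depth. Nppb had 0 reads in E14 and 29 reads (1.29 TPM) in E14-Sox2TA/WT, at least 9.96-fold higher as a share of library reads. Nppa thus took 100% of the pair's TPM in E14, with a lower limit of 74.4%, and 23.7% in E14-Sox2TA/WT (11.9 to 39.6%). Neighbouring genes that are often used together as heart markers therefore stood in opposite order in the 2 libraries, with few reads behind either.

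The ranking of the 10 genes by TPM kept Actc1 first in both libraries. In E14 it was followed by Tnni1, Tnni3, Tnnt2 and Myh7, each apart from the next beyond its counting interval, and then by Myh6, Myl7 and Nppa, whose neighbours in this order overlapped, and by Myl2 and Nppb at 0. In E14-Sox2TA/WT, Tnni3 and Tnni1 followed Actc1 with overlapping intervals, then Tnnt2 and Myl7, also overlapping, then Myh6. Myh7, Nppb and Myl2 came next, each overlapping its neighbour, and Nppa was last. Myl7 moved from the seventh place to the fifth.

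The list can be divided by whether skeletal muscle also uses a gene. The 5 genes that embryonic or slow skeletal muscle shares (Actc1, Myh7, Tnnt2, Tnni1 and Myl2) had a median log2 ratio of -0.65, and 1 was higher and 1 lower by more than 2-fold. Of the 5 genes that are more restricted to heart (Myh6, Myl7, Tnni3, Nppa and Nppb), 4 reached 1 TPM, with a median of 0.93, and 3 were higher and 0 lower, beside 19.3% and 18.9% of all genes. Myl7 and Nppb passed the limit only through the library in which they were higher, and Nppa, which was lower, did not pass it, so this count and median are partly set by the limit and are not compared with those of the shared genes. With the limit at 10 TPM only Tnni3 is left of the restricted genes, and the median is then -0.22, beside -0.18 over all genes. The division is given as a description.

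Many skeletal muscle genes were expressed in both teratomas, and more of them were lower than higher in the mutant library. Of 26 skeletal muscle markers, 20 reached 1 TPM, with a median log2 ratio of -0.90. Of these, 0 were higher and 11 lower by more than 2-fold, beside 19.3% higher and 18.9% lower over all genes. Of the lower ones, Myh4 and Pax7 passed the limit only through E14, where they were higher, so this count is partly set by it. With a limit of 10 TPM, 0 of 11 were higher and 6 lower, beside 10.8% and 18.7% of all genes. Some members were higher by less than 2-fold, among them Actn3, a fast-fibre α-actinin, at a ratio of 1.35 (interval 1.14 to 1.60), and Mybpc2 at 1.77 (1.18 to 2.67), the latter under 1 TPM in both libraries. Their summed TPM was 491 in E14 and 256 in E14-Sox2TA/WT, and none was at 0 in either library. The embryonic heavy chain Myh3 was at 24.7 and 5.34 TPM, 4.62-fold lower, and the perinatal heavy chain Myh8 at 19.6 and 1.90 TPM, 10.3-fold lower. Mylpf, the fast skeletal regulatory light chain, was at 185 and 112 TPM, 1.65-fold lower, and the essential light chain Myl1 at 46.7 and 19.2 TPM, 2.43-fold lower. How much of the lower Actc1, Myh7 and Tnni1 belongs to skeletal muscle was not tested.

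The share of the heart genes in their protein families ranged widely, from 0.414% of regulatory light chains to 73.8% of actins in E14. These families were set up after the values were seen. Myh6 and Myh7 made up 8.27% of the summed TPM of 8 myosin heavy chains in E14 and 29.2% in E14-Sox2TA/WT, because the family's sum was 52.1 TPM in E14 and 14.02 TPM in E14-Sox2TA/WT while theirs was nearly the same. Myl2 and Myl7 made up 0.414% and 6.13% of the regulatory light chains counted, nearly all of the rest being Mylpf. Tnni1 and Tnni3 made up 47.8% and 60.9% of troponin I, beside the fast skeletal Tnni2 at 34.2 and 14.1 TPM. Their own sum was lower in the mutant library, at 31.3 TPM in E14 and 22.0 TPM in E14-Sox2TA/WT. Tnnt2 made up 15.9% and 18.0% of troponin T. Actc1 went the other way, at 73.8% of the striated muscle actins in E14 and 63.4% in E14-Sox2TA/WT.

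Other cardiac sarcomere genes, 25 in number, were found on both sides. Of the 17 that reached 1 TPM, 3 were higher and 3 lower by more than 2-fold, beside 19.3% higher and 18.9% lower over all genes. Myl3 and Myh7b, both higher, and Myom2, which was lower, each passed the limit only through the library with the higher level. These counts are therefore partly set by the limit. The median log2 ratio was -0.13, and its sign turned with library totals (0.18), TMM factors (0.09), median-of-ratios factors (0.10) and a limit of 10 TPM (0.44), so no direction is given for this list. Myl4, the essential light chain of atrial and embryonic muscle, was at 90.1 and 30.4 TPM, 2.96-fold lower with an interval of 2.73 to 3.22, beside 3.002-fold for Actc1. Tnnc1, the troponin C of heart and slow muscle, was at 32.3 and 17.4 TPM, 1.86-fold lower. Actn2, which anchors actin at the Z-disc, was at 3.14 and 7.42 TPM, 2.37-fold higher with an interval of 2.02 to 2.78, and Tpm1, α-tropomyosin, was at 218 and 296 TPM, 1.36-fold higher. Mybpc3, the cardiac myosin-binding protein C, had 0 reads in E14 and 33 in E14-Sox2TA/WT, at least 11.3-fold higher as a share of library reads.

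Among 20 cardiac transcription factors, 13 reached 1 TPM, and 5 were higher and 2 lower by more than 2-fold, with a median log2 ratio of 0.49, against 19.3% higher and 18.9% lower over all genes. Gata4, Gata6 and Hand1 passed the limit only through the library in which they were higher, so that the count and median are partly set by the limit. With a limit of 10 TPM, 1 of 7 was higher and 2 were lower, beside 10.8% and 18.7% of all genes. The median was then -0.21, beside -0.18 over all genes. Gata4, which acts in heart and in endoderm, was at 0.511 TPM (43 reads) in E14 and 13.5 TPM (1239 reads) in E14-Sox2TA/WT, 26.4-fold higher with an interval of 19.5 to 36.7. Gata6, of the same family, was 9.69-fold higher. Hand1, a heart and extraembryonic factor, had 0 and 207 reads, at least 71.1-fold higher as a share of library reads. Hand2, a factor of the right ventricle and other tissues, was at 1.06 and 2.70 TPM, and Tbx18, of epicardium and sinus node, at 2.82 and 6.66 TPM, both over 2-fold higher. The lower factors were Isl1, which marks heart progenitors and also some neurons, at 19.7 and 7.04 TPM, 2.81-fold lower, and Hey2, a Notch target of ventricular muscle and vessels, at 13.5 and 4.35 TPM, 3.11-fold lower. Nkx2-5, the defining factor of heart precursors, had 22 and 12 reads and Tbx5 had 4 and 14, each under 1 TPM in both libraries. Hopx at 45.4 and 64.3 TPM, Hey1 at 54.2 and 46.1 TPM and Srf at 23.8 and 22.2 TPM were the most abundant of the list and differed by less than 2-fold.

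Of 19 calcium handling, channel and junction genes of the heart, 17 reached 1 TPM, with a median log2 ratio of -0.36. Of these, 1 was higher and 5 lower by more than 2-fold, beside 19.3% and 18.9% of all genes. Of the lower ones, Cacna1c and Kcnq1 passed the limit only through E14, where they were higher, so this count is partly set by it. With a limit of 10 TPM, 0 of 6 were higher and 1 lower, beside 10.8% and 18.7% of all genes. Sln, sarcolipin, a regulator of the calcium pump in atria and skeletal muscle, was at 12.3 and 3.41 TPM, 3.60-fold lower. Hcn4, the pacemaker channel, was at 7.23 and 1.39 TPM, 5.20-fold lower. Atp2a2, the calcium pump, at 121 and 93.9 TPM, and the connexins Gja1 at 124 and 166 TPM and Gjc1 at 43.9 and 53.3 TPM differed by less than 2-fold. Pln, phospholamban, which is abundant in working heart muscle, had 0 reads in both libraries, and Ryr2, the calcium release channel of heart muscle, was at 1.09 and 0.764 TPM.

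The pathway through which natriuretic peptides act was better covered than the peptides themselves, with all 10 of its listed genes at 1 TPM or more in at least 1 library. Of these, 3 were higher and 1 lower by more than 2-fold, beside 19.3% and 18.9% of all genes, with a median log2 ratio of 0.33. Of the higher ones, Npr1 passed the limit only through the library in which it was higher. Counts of this size over 10 genes are not read as a pattern of the pathway. Among the ligands, Nppc, the C-type peptide made outside heart muscle, was at 9.78 and 1.90 TPM, 5.14-fold lower with an interval of 3.82 to 7.04. Among the receptors, Npr1, the receptor for the Nppa and Nppb products, was at 0.956 and 5.54 TPM, 5.80-fold higher with an interval of 4.67 to 7.27. Npr2, the receptor for the Nppc product, was at 12.3 and 9.94 TPM, and the clearance receptor Npr3 was at 1.56 and 2.75 TPM, 1.76-fold higher. Nppc is the only ligand of that list, and it lay in the opposite direction from Nppb.

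Of the proteases of the pathway, Corin, which cleaves the Nppa precursor, was at 16.7 and 24.0 TPM, Furin at 19.8 and 16.9 TPM and Pcsk6 at 8.88 and 9.60 TPM. Mme, neprilysin, which degrades the peptides, was at 5.16 and 12.4 TPM, 2.41-fold higher. Downstream, the cGMP-dependent kinase Prkg1 was at 1.52 and 1.81 TPM, and Pde5a, which breaks down cGMP, was at 6.47 and 14.1 TPM, 2.18-fold higher.

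**Figure D3:**
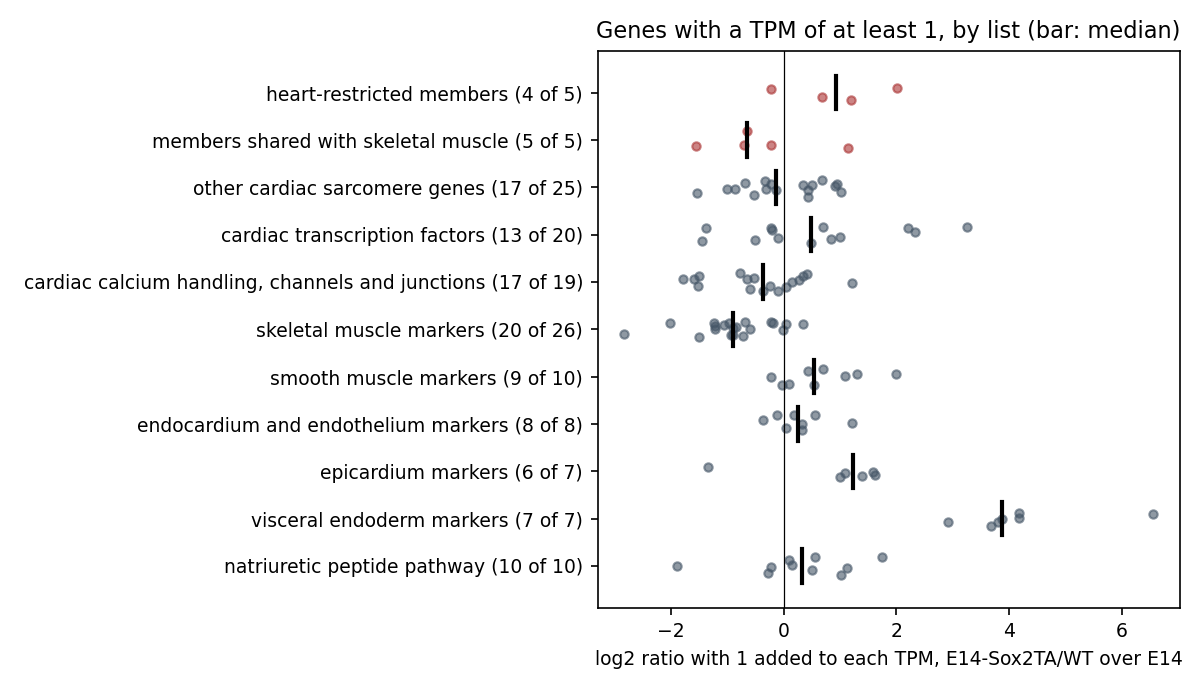
Log2 ratio with 1 added to each TPM (x axis, E14-Sox2TA/WT over E14) for every gene with at least 1 TPM in 1 or both libraries, by gene list; each point is a gene, the bar is the list's median and the numbers give genes shown of genes listed. The skeletal muscle median lies at -0.90 and that of the visceral endoderm list at 3.88. The median of the heart-restricted genes lies at 0.93, but it is partly set by the limit of 1 TPM and is not compared with the others. With a limit of 10 TPM it was -0.22, beside -0.18 over all genes at that limit.

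Markers of other cell types also differed between the libraries. All 7 visceral endoderm markers were higher by more than 2-fold, beside 19.3% higher and 18.9% lower over all genes with a limit of 1 TPM. Afp, Apob and Cubn passed that limit only through the library in which they were higher, so this count is partly set by it. The summed TPM of the 7 was 9.71 in E14 and 369 in E14-Sox2TA/WT, led by Afp at 0.614 and 151 TPM, Apoa1 at 2.45 and 61.1 TPM, Rbp4 at 3.57 and 57.6 TPM and Ttr at 1.32 and 41.1 TPM. Gata4 and Gata6 are also known in this tissue. Of 10 smooth muscle markers, 9 reached 1 TPM, of which 5 were higher and 0 lower, beside 19.3% and 18.9% of all genes. Of the higher ones, Myh11 passed the limit only through the library in which it was higher. The summed TPM of the 10 was 133 and 215, with Tagln at 15.0 and 63.2 TPM, Actg2 at 1.15 and 4.32 TPM, Myl9 at 46.8 and 68.5 TPM and Acta2 at 49.0 and 52.6 TPM. Of 7 epicardium markers, 6 reached 1 TPM, of which 5 were higher and 1 lower, beside 19.3% and 18.9% of all genes. Of the higher ones, Wt1 passed the limit only through the library in which it was higher. The summed TPM of the 7 was 44.4 and 61.3, including Msln at 4.34 and 15.5 TPM, Aldh1a2 at 4.12 and 14.4 TPM and Upk1b at 29.0 and 10.9 TPM. Endothelial markers were nearer to each other, with 1 of 8 higher (Tek, at 2.21 and 6.44 TPM) and 0 lower, beside 19.3% and 18.9% of all genes. Their summed TPM was 92.9 and 102. None of these marker genes was at 0 in either library. Their part in the values of the 10 genes was not tested.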

How the data were processed

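RNA-seq was analysed for 1 E14 and 1 E14-Sox2TA/WT teratoma library. Raw counts for each gene were deposited, beside FPKM and TPM made by the authors. The submitters' processing notes name bcl2fastq 2.20.0, Trimmomatic, HISAT2 2.1.0 and StringTie 2.1.3b and list mm10 among the builds. Gene identifiers are those of NCBI, and all 10 matched RefSeq on GRCm38, the same build, which gave positions. A spliced aligner with transcript assembly can divide reads between close copies. The labels name teratoma as the tissue, while their extract protocol speaks of the ESC line.

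From these files, TPM ratios were computed with 95% Clopper-Pearson intervals. A count of 0 was taken to allow 3 reads, and 1 was added to each TPM for medians. No p-value was computed. Depth was 50529171 and 49030281 reads on genes, so that precision is limited mainly for genes with few reads. The members and lists were chosen with earlier results of these data known. Text names all members, Acta1, Sox2, all natriuretic pathway genes, genes overlapping or next to a member, and in each other list the 3 most abundant and the 2 most changed. Some of these are left out where they repeat a group's pattern, and Gata6, Nkx2-5, Tbx5, Mybpc3, Pln, Ryr2, Tnni2, Isl1, Hey2, Hand2, Tbx18, Actn3, Mybpc2 and Dnaaf3 were named after their values were seen. So were Myl3, Myh7b, Myom2, Apob, Cubn, Myh11, Wt1, Myh4, Pax7, Cacna1c and Kcnq1. Shared stretches of 50 nt and exon overlaps were taken from GENCODE M21. Scripts were tested on simulated data. Alternatives covered scaling (FPKM, library total, edgeR's TMM factors and median-of-ratios size factors), pseudocount, TPM limit, fold and close copies. Software was edgeR 4.0.16 in R 4.3.3, and Python 3.11.15 with scipy 1.17.1, numpy 2.4.6 and pandas 2.3.3.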

Additional observations from a re-analysis of the deposited data

How the results depend on the processing

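No paired analysis was possible because neither group has more than 1 library, and leaving out a replicate was not possible for the same reason. Of 42 alternative values for the main results, 39 were within counting error or 1.5 times the reported value, and 3 moved. Some of the 39 could not have moved. Shares of a pair by FPKM equal those by TPM within a library. The E14 shares of Myl7 and Nppa were fixed because their partners had no reads there. The median log2 ratio of the 10 genes was -0.70 with a limit of 10 TPM in place of 1, where 3 genes are left. Over all genes it was -0.18 at that limit. By the study's rule 4 genes rather than 0 were higher with a limit of 1 TPM, and 2 rather than 1 were lower with a fold above 1.5. The median stayed at -0.22 with Myl2 and Nppb at their bounds, a setting added after seeing the data. Both genes already lay above the median, so this setting could not move it. Of 98 values for single genes and lists, 69 were within those margins, 27 moved further and 2 turned from a called direction to the other, both with a limit of 10 TPM. The median of the heart-restricted genes, of which only Tnni3 is left, was then -0.22, and that of the cardiac transcription factors -0.21. Over all genes it was -0.18 at that limit, so both values lay near that of all genes. The median of the other cardiac sarcomere genes, whose direction was not called, changed sign with library totals (0.18), TMM (0.09), median-of-ratios factors (0.10) and a limit of 10 TPM (0.44). None of the 8 genes with reads in both libraries changed direction under another scaling. Counting error is widest for Myl7, Nppa, Myl2 and Nppb, and differences between tumours or between pieces of a tumour were not measured.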
